A study of Mus musculus with 8 samples.

Results

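The serpins are a family of protease inhibitors. The genes described here are all those whose symbol in the array's annotation begins with Serpin, including probe sets shared by several Serpin genes. They came to 36 genes of the 13319 genes named on the array, read by 42 probe sets. Of these probe sets, 39 were annotated to 1 Serpin gene and 3 to several, and 6 of the 36 genes were read only through a shared probe set. All 36 symbols were unchanged in the RefSeq gene table of the mouse assembly GRCm38.p6.

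Expression was compared between primitive erythroid precursors, the red cell precursors of the yolk sac, and yolk sac epithelial cells. Both were cut with a laser from frozen sections of yolk sacs of FVB/N mice at embryonic day 9.5, with no treatment and no mutant allele. There were 4 erythroid and 4 epithelial samples in 4 pairs, and both samples of a pair came from the same slides. Each replicate pooled 2 to 4 yolk sacs from 2 litters, so a value is that of a pool. About 2 to 3 laser pulses were spent on each erythroid cell and 1 on each epithelial cell, and each RNA sample of 10 to 39 ng went through the two-cycle labelling of the maker, which starts at the 3′ end.

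A serpin offers its reactive loop to a protease as bait, and once cut it locks the enzyme in an inactive complex. Secreted serpins of liver and yolk sac endoderm restrain clotting, clot breakdown and inflammation. Clade B serpins lack a classical signal peptide and act mainly inside cells, and a few members inhibit nothing, among them the collagen chaperone Serpinh1. The visceral endoderm, the epithelium of the yolk sac, makes many of the serum proteins that the liver makes later.

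Values are array signals on a linear scale, and each test compared the 2 kinds of capture within a probe set. Changes are log2, erythroid minus epithelial, after quantile normalisation, with the standard error (SE) of the limma fit over 4 pairs. P-values are limma's, adjusted by the Benjamini-Hochberg method over all probe sets tested, and a probe set is called at an adjusted p under 0.05. Probe sets below the median of their array on more than 4 of the 8 arrays were left untested. The background level of an array is the 95th percentile of 129 probe sets for olfactory, vomeronasal and taste receptors, hair keratin-associated proteins and defensins.

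Median signals of the 8 arrays lay between 81.6 and 127, their background levels between 55.0 and 133, and between 48.6% and 57.8% of probe sets were above background. The ratio of 3′ to 5′ control signal is higher where RNA is less intact. For Gapdh it was 38.7 to 44.4 in pairs 1 and 2, and 7.0 to 17.4 in pairs 3 and 4. For Actb it was 46.5 to 131 in pairs 1 and 2, and 7.75 to 13.5 in pairs 3 and 4. Within pairs, the log2 Gapdh ratio differed between erythroid and epithelial captures by 0.28 ± 0.56 (SD, n = 4 pairs, exact two-sided sign-flip p = 0.5, where 4 pairs can give no p below 0.13). Of 13 tested red cell precursor markers, 10 were higher in erythroid captures and 0 lower. Of 19 visceral endoderm markers, 15 were lower and 1, Sox17, was higher, with summed signals of 73055 to 105614 in erythroid captures against 119166 to 182651 in epithelial ones. Afp and Ttr gave a large part of these sums, and were not called in their brightest probe sets, which were used here. With the mean of a gene's probe sets, limma called both lower. Afp then gave -0.43 (adjusted p = 0.0264) and Ttr -0.70 (0.0032). Summed red cell marker signals were 81497 to 156858 in erythroid captures against 48940 to 92713 in epithelial ones. The globin genes Hbb-bh1 and Hbb-y, which were not called, gave a large part of these sums. Each kind of capture thus held marker signal of the other. Of 12 tested mesenchyme and mesothelium markers, 8 were higher in erythroid captures and 0 lower, with sums of 41773 to 63356 in erythroid captures against 9386 to 36750 in epithelial ones. The part of these other cells in the serpin values was not tested, and in such captures fewer cells of a type and less RNA per cell cannot be told apart.

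Serpin transcripts that were called were all lower in erythroid captures. Of the 42 probe sets, 15 passed the filter, and of these 8 were lower, 0 were higher and 7 were not called. Over all 11449 probe sets tested, 13.9% were called, 7.69% lower and 6.19% higher. The 8 probe sets read 6 genes, namely Serpinf2, Serpina10, Serpina1b, Serpind1, Serpinc1 and Serpinb1a, of 11 Serpin genes tested. Over all 7191 genes tested, 8.87% were called lower. The count of 8 became 4 without pair 3, 3 without pair 4 and 4 in a fit without the pairing. It was 5 without the filter and 2 without limma's variance trend. The fit without the trend kept only the calls of Serpina10 and of Serpina1b probe set 1451513_x_at. The 15 tested serpin probe sets had a median change of -1.0, against 0.02 for all probe sets tested. Without the filter the median was -0.02 over all 42 serpin probe sets, 27 of which had not passed it, and 0.01 over all probe sets. Some passed the filter through epithelial arrays: both Serpina1b probe sets and 1 Serpinb1a probe set reached the array median on no more than 3 erythroid arrays. The groups did not overlap, with every erythroid value below every epithelial one, for 3 serpin probe sets, against 6.48% of all tested, and the opposite held for 0, against 6% of all tested.

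**Figure D1:**
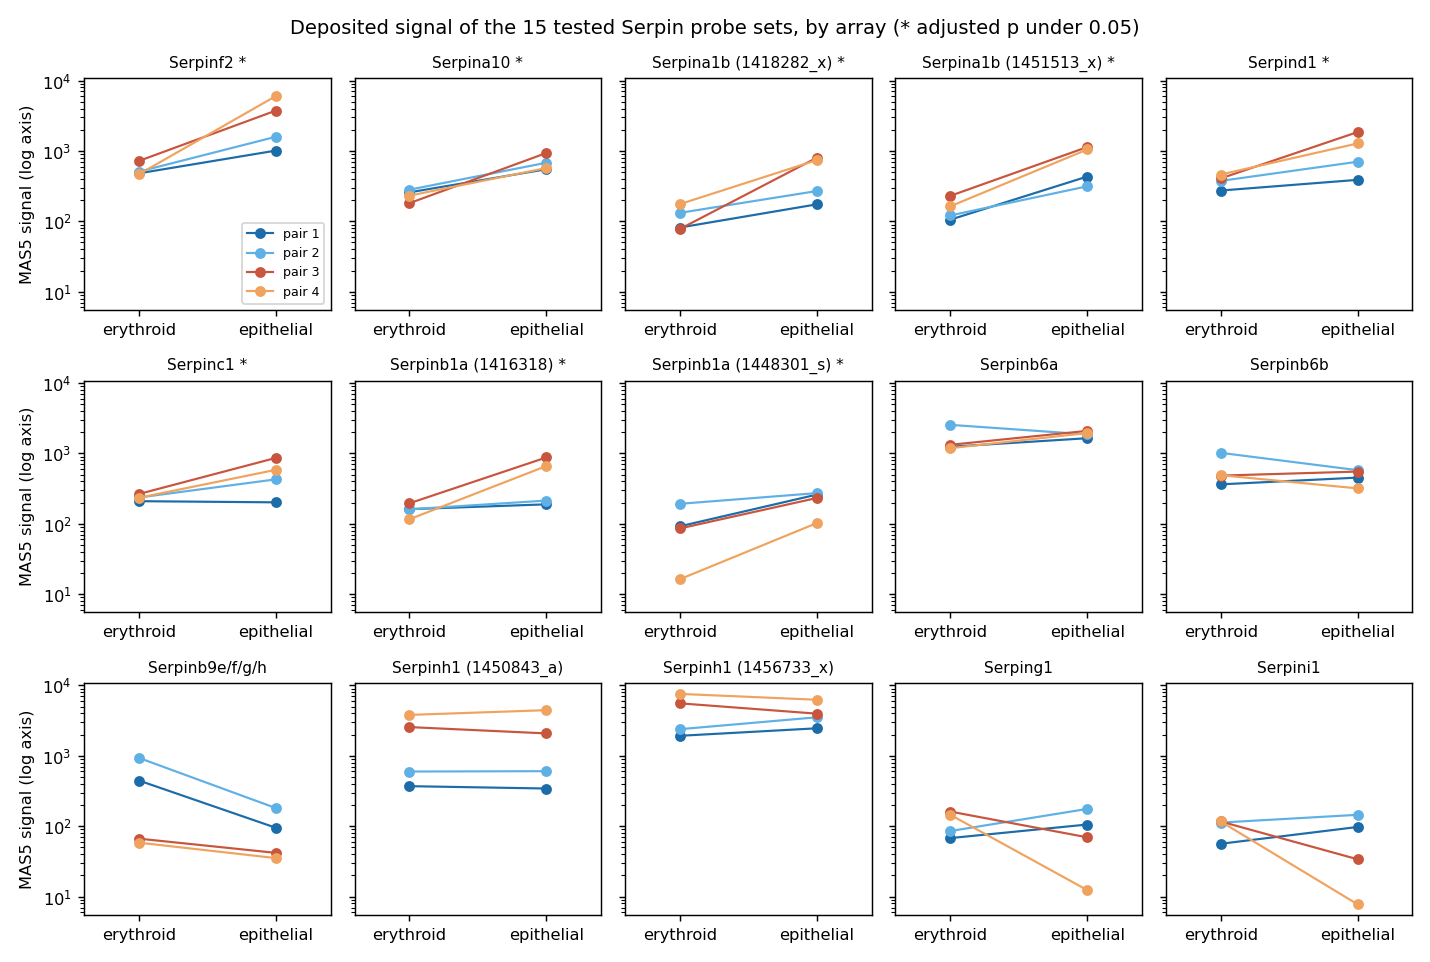
Signals on a log scale of the tested Serpin probe sets in the 4 erythroid and 4 epithelial captures, with lines joining the samples of a pair. For Serpinf2 the erythroid values lie between 468 and 721 and the epithelial ones between 1011 and 6026, while the lines of Serpinh1 run in both directions.

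The most lowered of the serpins was Serpinf2, alpha-2-antiplasmin, the main inhibitor of the clot-dissolving protease plasmin. Its signals were 481, 508, 721 and 468 in the erythroid captures of pairs 1 to 4, against 1011, 1590, 3744 and 6026 in the epithelial captures. The groups did not overlap, and the 4 erythroid values lay close together while the epithelial ones spread widely, with the highest in pairs 3 and 4. The change was -2.23 ± 0.38 (adjusted p = 0.00427), so the epithelial captures were 4.69-fold higher. Within the pairs it was -1.07, -1.57, -2.36 and -3.93. The drop in pairs 3 and 4 exceeded that in pairs 1 and 2 by 1.83 on the log2 scale (interaction term, adjusted p = 0.0414). Serpinf2 was the single serpin probe set called for this interaction, against 1.84% of all tested, and the interaction was lost without pair 1 (adjusted p = 0.0593) or pair 4 (0.19). In those fits 1 set holds a single pair, assumed to vary like the other set.

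Serpina10, the protein Z-dependent inhibitor of clotting factor Xa, had erythroid signals of 258, 281, 181 and 231, against epithelial signals of 549, 680, 934 and 571. No erythroid value reached the lowest epithelial one. The change was -1.54 ± 0.27 (adjusted p = 0.00472). It was negative in each pair, between -2.44 and -1.17, and the call held in each alternative tried, without any 1 pair included.

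Heparin cofactor II, the thrombin inhibitor encoded by Serpind1, gave 273, 375, 406 and 462 in erythroid captures, against 388, 702, 1854 and 1278 in epithelial captures. It was lower within every pair, but the groups overlapped, since epithelial pair 1 lay among the erythroid values. The change was -1.29 ± 0.28 (adjusted p = 0.0127), made up of -0.65, -0.80, -2.25 and -1.48 in pairs 1 to 4. Without pair 3 or pair 4 the call was lost (adjusted p = 0.0534 and 0.0783), as it was in a fit without the pairing (0.0993).

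Antithrombin, encoded by Serpinc1, inhibits thrombin and factor Xa when bound to heparin. Its erythroid signals were 209, 236, 265 and 234, against 202, 428, 863 and 585 in epithelial captures. In pair 1 the values of the 2 captures were almost level (-0.15), while pairs 2 to 4 gave -0.74, -1.79 and -1.34. The change of -1.0 ± 0.29 was called at an adjusted p of 0.0438, close to the threshold. It was lost without pair 2, 3 or 4 (adjusted p = 0.0685, 0.175 and 0.2), without the pairing (0.152), without the filter (0.0802) and on the deposited scaling (0.0577).

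The alpha-1-antitrypsin genes, Serpina1a to Serpina1e in the mouse, encode secreted inhibitors of neutrophil elastase and stand in a row on chromosome 12. The 250 bases before and 50 after each RefSeq gene start (GRCm38.p6) were searched on both strands for 9 short motifs, and 32 of the 36 Serpin genes had an entry among 32851 promoters. GTTAAT, the core of the sequence known to bind HNF1 factors, was in 5 of 5 Serpina1 promoters and in 7.1% of all promoters. TGTTTGC, a forkhead core, was in 5 of 5 and in 5.07% of all. GTTAAT was also in the promoters of Serpinb8 and Serpini2, both at or under background here, and TGTTTGC in those of Serpinb6b and Serpinb9. The other motifs searched were a second forkhead core (TGTTTAC, 3.65% of all promoters), the HNF4-type CAAAGTCCA (0.475%) and CAAAGTTCA (0.39%), AGTCCA (14.1%, part of the first), the GATA-type AGATAA (11.2%) and TGATAA (9.05%), and TATAAA (13.6%). Among the called genes, CAAAGTTCA was in the promoter of Serpind1, AGTCCA in that of Serpina1b and AGATAA in that of Serpinf2. The following 80 bases of each promoter are shown because they carry both cores in the same arrangement, written 5′ to 3′ on the gene's strand with the cores in capitals, TGTTTGC first and GTTAAT second.
Serpina1b: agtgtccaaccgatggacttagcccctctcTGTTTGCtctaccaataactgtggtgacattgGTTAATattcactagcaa
Serpina1a: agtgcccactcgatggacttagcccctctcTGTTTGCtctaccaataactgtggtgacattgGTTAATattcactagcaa
Serpina1c: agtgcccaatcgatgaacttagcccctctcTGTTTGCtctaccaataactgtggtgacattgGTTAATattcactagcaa
Serpina1d: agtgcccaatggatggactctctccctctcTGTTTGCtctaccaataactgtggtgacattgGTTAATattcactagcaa
Serpina1e: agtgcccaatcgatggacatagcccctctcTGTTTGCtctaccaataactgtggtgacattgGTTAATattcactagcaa
The windows lie on the minus strand of GRCm38.p6 at chr12:103738198-103738277 (Serpina1b), chr12:103863623-103863702 (Serpina1a), chr12:103904960-103905039 (Serpina1c), chr12:103773632-103773711 (Serpina1d) and chr12:103956958-103957037 (Serpina1e). The starts of the 2 cores are 32 bases apart in each. The windows of the other copies are 91.2% to 96.2% identical to that of Serpina1b, so the copies are not independent examples. GTTAAT starts between 16 bases (Serpina1d) and 78 bases (Serpina1e) before the annotated gene start. Of the 6 called genes, 4 had a promoter entry, and GTTAAT was found in that of Serpina1b alone. A match is a description of the letters and no evidence of binding.

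Both tested probe sets of Serpina1b were lower in erythroid captures. Probe set 1451513_x_at gave 105, 121, 230 and 163 in erythroid captures, against 432, 314, 1134 and 1048 in epithelial captures. The groups did not overlap, and the change of -2.13 ± 0.27 had the lowest adjusted p of the family (0.00146). It kept its call in each alternative tried. For 1418282_x_at the signals were 81.6, 132, 77.7 and 175 in erythroid captures, against 174, 269, 801 and 740 in epithelial captures. Here the groups overlapped by 1 value, erythroid pair 4. The change was -1.94 ± 0.39 (adjusted p = 0.00934), and without pair 4 it missed the threshold (0.0642). Probe sets with this suffix may bind transcripts of near-identical copies, so the values are those of the Serpina1 group rather than of Serpina1b alone.

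The probe sets of the other Serpina1 copies did not pass the filter. The shared Serpina1d and Serpina1a probe set read 15.1, 0.984, 130 and 40.2 in erythroid captures, against 39.5, 71.1, 397 and 156 in epithelial captures. It was lower within each of the 4 pairs, and was above background on 1 erythroid and 2 epithelial arrays. Fitted without the filter its change was -1.93 (adjusted p = 0.0552). Serpina1c gave 97.9, 99.3, 20.6 and 109 in erythroid captures, against 62.3, 135, 111 and 307 in epithelial captures, and was lower in 3 of the 4 pairs. The probe set shared by Serpina1e, Serpina1c and Serpina1b was at or under background on all 8 arrays.

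**Figure D2:**
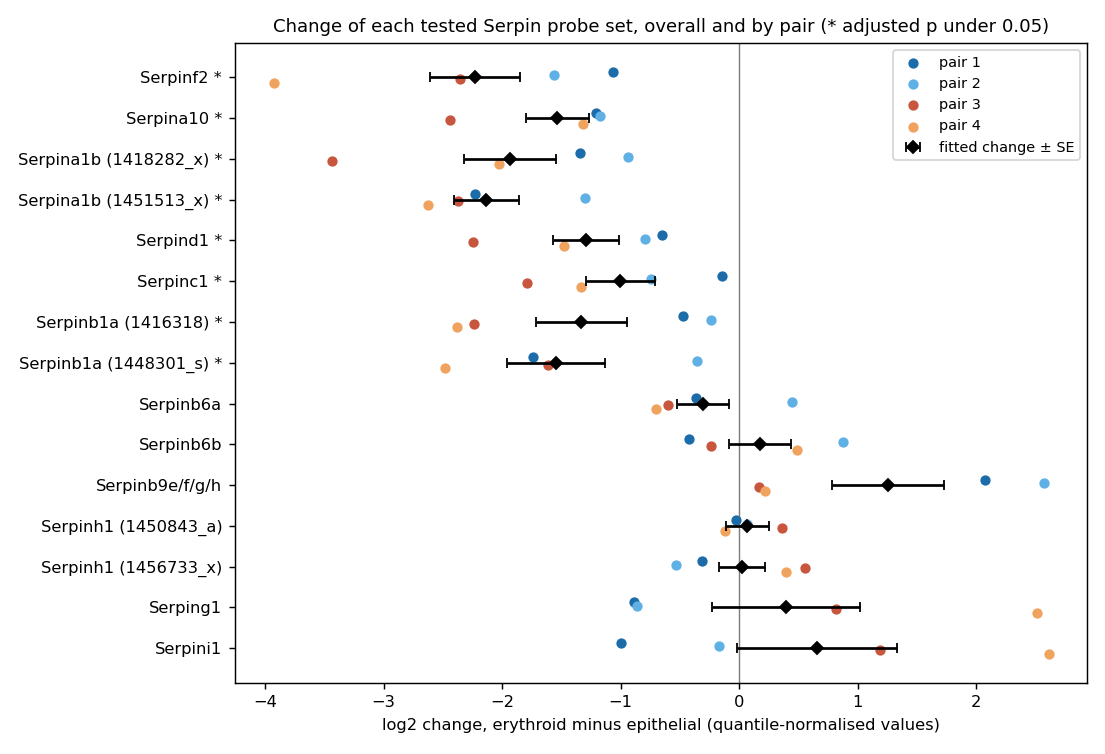
Change of each tested Serpin probe set in log2, erythroid minus epithelial, as the fitted value with its SE (black) and as the value of each pair (coloured points). All 8 called probe sets, marked with a star, lie left of 0 in each pair, and their points for pairs 3 and 4 average lower than those for pairs 1 and 2.

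Within cells, Serpinb1a inhibits neutrophil serine proteases such as elastase and cathepsin G. Probe set 1416318_at gave 161, 160, 195 and 116 in erythroid captures, against 189, 214, 876 and 662 in epithelial captures. In pairs 1 and 2 the captures were close, and in pairs 3 and 4 the epithelial values stood far above the erythroid ones. The change was -1.33 ± 0.39 (adjusted p = 0.0444), averaging -0.35 over pairs 1 and 2 but -2.31 over pairs 3 and 4. The difference between the 2 sets of pairs was not called (interaction adjusted p = 0.0708).

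A second Serpinb1a probe set, 1448301_s_at, read 92.0, 192, 85.8 and 16.3 in erythroid captures, against 260, 273, 232 and 102 in epithelial captures. The change was -1.55 ± 0.41 (adjusted p = 0.0319), and its pairs did not divide in the same way, with -1.74, -0.36, -1.61 and -2.48. The signal was above background on 1 of 4 erythroid arrays. Both Serpinb1a calls were lost without pair 3 (adjusted p = 0.187 for the first and 0.0971 for the second), without pair 4 (0.231 and 0.13), without the pairing (0.14 and 0.182) and without the filter (0.0781 and 0.0635). The second was also lost without pair 1 (0.0911).

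Other clade B genes gave no call. Serpinb6a, which encodes an inhibitor of cathepsin G, had 1241, 2543, 1324 and 1185 in erythroid captures, against 1642, 1860, 2088 and 1946 in epithelial captures. Pair 2 ran opposite to the other three, and the change was -0.31 ± 0.22 (adjusted p = 0.383, 95% interval -0.78 to 0.17). Serpinb6b, of the same clade, read 363, 1018, 483 and 490 in erythroid captures, against 453, 577, 551 and 318 in epithelial captures, with 2 pairs on either side of 0 and a change of 0.18 ± 0.26 (adjusted p = 0.695).

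Serpinb9 encodes an intracellular inhibitor of granzyme B, and the mouse has several close relatives of it on chromosome 13. The probe set shared by Serpinb9e, Serpinb9f, Serpinb9g and Serpinb9h read 445, 934, 66.6 and 58.4 in erythroid captures, against 94.9, 181, 41.8 and 35.2 in epithelial captures. It was the 1 tested serpin probe set that was higher in all 4 pairs, against 18.5% of all tested. By pair, the excess was 2.07, 2.57, 0.17 and 0.22, so that pairs 1 and 2 stood apart from pairs 3 and 4. The change over all pairs was 1.26 ± 0.47 and was not called (adjusted p = 0.102). A fit on pairs 1 and 2 alone gave 2.32 (adjusted p = 1.48e-07), resting on a variance borrowed across probe sets, and pairs 3 and 4 alone gave 0.19 (0.927). The difference between the sets of pairs was not called (interaction adjusted p = 0.193).

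Probe sets for single Serpinb9 relatives did not pass the filter. Serpinb9 itself (1422601_at) gave 102, 361, 91.2 and 136 in erythroid captures, against 61.5, 116, 32.1 and 20.4 in epithelial captures. It was higher in 4 of 4 pairs, and above background on 3 erythroid arrays and 0 epithelial arrays. The mean of its erythroid captures was 1.44-fold an epithelial floor, a point value without a test. That floor is the lowest signal of an array above background, or the probe set's own where higher. The same ratio was under 1 for Serpinb9g (0.661), both Serpinb9c probe sets (0.475 and 0.438), Serpini1 1448443_at (0.79), Serpinb11 (0.77) and Serpinb1b (0.546). Without the filter the change was 1.30 (adjusted p = 0.158). Serpinb9b read 82.9, 361, 13.2 and 88.8 in erythroid captures, against 73.5, 60.0, 23.4 and 87.1 in epithelial captures, and stood out in erythroid pair 2. Serpinb9g gave 102, 436, 0.715 and 40.7 in erythroid captures, against 13.4, 66.0, 36.6 and 2.29 in epithelial captures. The 2 probe sets of Serpinb9c were above background on 2 erythroid arrays and on 1, and on 0 epithelial arrays each.

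A similar division of pairs was seen in 2 genes of other kinds, which were singled out after their values were seen. Prl8a2, a prolactin relative of the mouse decidua, had 7462, 11310, 19.0 and 7.54 in erythroid captures, against 710, 3481, 37.1 and 36.2 in epithelial captures. Its signal was thus high in both captures of pairs 1 and 2, while those of pairs 3 and 4 were below background. The serine protease Htra1 had 3634, 4889, 12.9 and 33.1 in erythroid captures, against 277, 1485, 75.2 and 5.91 in epithelial captures. Of 8 measured trophoblast and decidua markers, 4 were at or under background on all 8 arrays, 2 were tested and 0 were called. Their summed signal ran over 304 to 12221 in erythroid captures and over 367 to 3836 in epithelial ones. The part of decidual tissue in the Serpinb9 values was not tested. Granzyme B itself, Gzmb, changed by -0.09 ± 0.49 (adjusted p = 0.93).

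**Figure D3:**
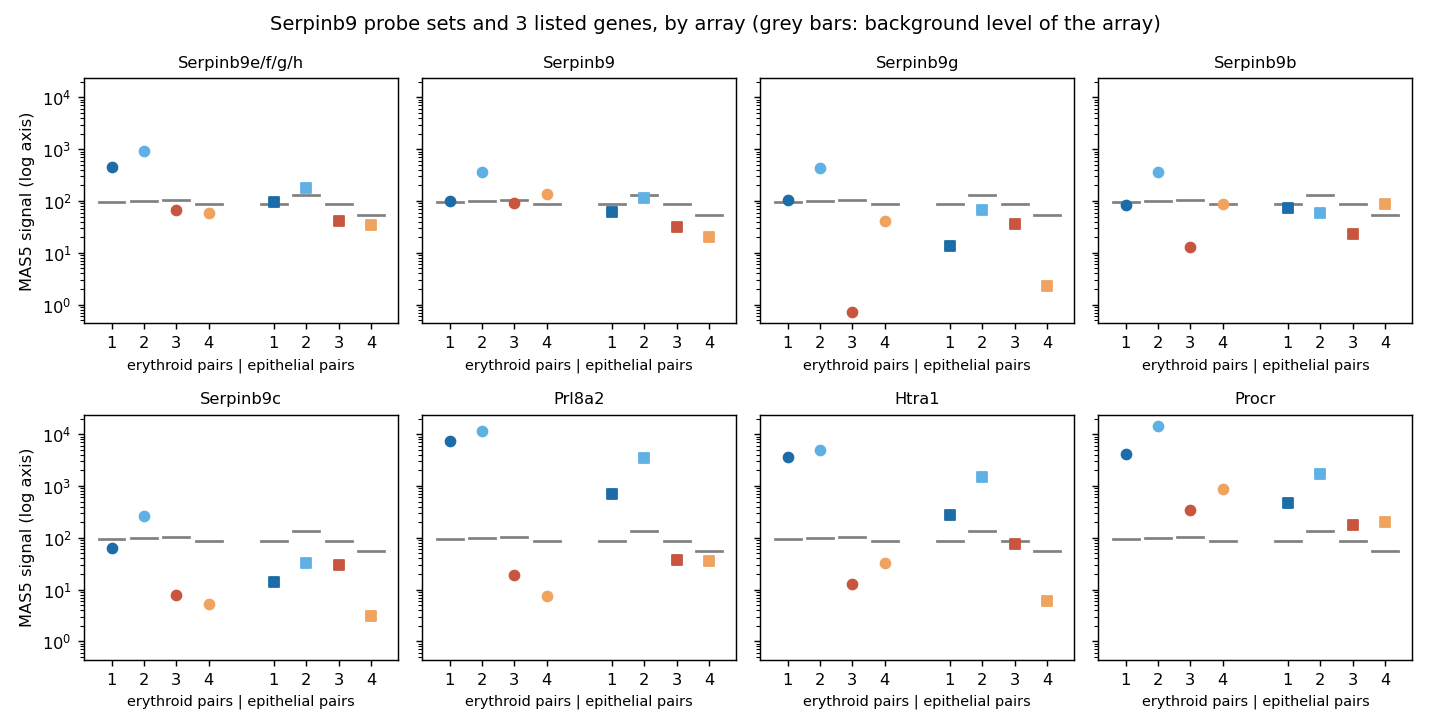
Signals on a log scale of 5 Serpinb9-type probe sets and of Prl8a2, Htra1 and Procr in the erythroid captures (circles) and epithelial captures (squares) of pairs 1 to 4, with grey bars at the background level of each array. The shared Serpinb9e to Serpinb9h probe set and Prl8a2 are highest in the erythroid captures of pairs 1 and 2, at 445 and 934 and at 7462 and 11310.

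Serpinh1, also named HSP47, is a collagen-binding chaperone of the endoplasmic reticulum and not a protease inhibitor. Probe set 1456733_x_at read 1926, 2391, 5572 and 7587 in erythroid captures, against 2462, 3529, 3973 and 6263 in epithelial captures. Probe set 1450843_a_at read 371, 598, 2561 and 3816 in erythroid captures, against 343, 606, 2082 and 4455 in epithelial captures. Both were higher in pairs 3 and 4 than in pairs 1 and 2 in both kinds of capture, and in each the erythroid and epithelial values overlapped. The changes were 0.02 ± 0.19 (adjusted p = 0.95, 95% interval -0.41 to 0.46) and 0.07 ± 0.18 (adjusted p = 0.84, 95% interval -0.34 to 0.48). Within the first, pairs 1 and 2 averaged -0.43 and pairs 3 and 4 averaged 0.48, a difference that was not called (interaction adjusted p = 0.0891). A fit on pairs 3 and 4 alone called this probe set higher in erythroid captures (0.48, adjusted p = 0.0434), and one on pairs 1 and 2 alone did not (-0.43, 0.208).

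Genes of collagen and its folding, the clients and partners of Serpinh1, were called in 5 of 18 tested cases, all higher in erythroid captures. Of 12 tested mesenchyme and mesothelium markers, some of which stand in both lists, 8 were also higher, and their part in the collagen values was not tested. Col1a1 gave 1.63 ± 0.39 (adjusted p = 0.0212), Col5a2 gave 1.46 ± 0.42 (0.0438) and Col3a1 gave 1.34 ± 0.40 (0.0471), all fibrillar collagen chains. These changes lay mainly in pairs 3 and 4. Col1a1 averaged 0.47 over pairs 1 and 2 and 2.78 over pairs 3 and 4 (interaction adjusted p = 0.0014), Col5a2 averaged 0.20 and 2.73 (0.0005), and Col3a1 averaged 0.16 and 2.53 (0.00027). The list's median was 0.38, against 0.02 for all probe sets tested, and 6.02% of all genes tested were called higher. No gene of the list was called by limma without pair 3, without pair 4, without the pairing or without the variance trend. None was called on pairs 1 and 2 only, while 8 were called without pair 1. The robust form of limma and the fit without the filter each called 2. Both lost Col5a2 (adjusted p = 0.0787 and 0.0537) and Col3a1 (0.0864 and 0.0635). For Col1a1 the adjusted p was 0.097 without pair 3 and 0.118 without pair 4.

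Serping1, the inhibitor of the first complement component, had 67.8, 85.4, 162 and 145 in erythroid captures, against 106, 176, 69.6 and 12.4 in epithelial captures. Pairs 1 and 2 had lower erythroid values (-0.89 and -0.86), while pairs 3 and 4 had higher ones (0.82 and 2.51). The change of 0.39 ± 0.62 was not called (adjusted p = 0.716), nor was the interaction (0.289). Serpini1, neuroserpin, an inhibitor of tissue plasminogen activator, had a similar pattern in its tested probe set, with 56.3, 113, 117 and 117 in erythroid captures and 97.6, 145, 33.9 and 7.76 in epithelial captures. Its change was 0.66 ± 0.68 (adjusted p = 0.562). Both genes were above background on only 2 or 3 arrays of a group, and their pairs ran in opposite directions.

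A second Serpini1 probe set, 1448443_at, did not pass the filter but had every erythroid signal (70.7, 100, 57.2 and 95.1) above every epithelial one (35.1, 5.47, 14.2 and 24.8). It was above background on 1 erythroid array and 0 epithelial arrays. Serpinf1, which encodes the secreted factor PEDF and is the neighbour of Serpinf2, read 59.1, 82.3, 106 and 53.5 in erythroid captures, against 47.9, 91.2, 81.4 and 134 in epithelial captures. These groups overlapped throughout, and the probe set was above background on 1 array of each group.

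Of the 27 probe sets that did not pass the filter, 11 were above background on at least 1 array and 16 on none. Those 16 read Serpina3a, Serpina3n, Serpina5, Serpina6, Serpina12, Serpinb2, Serpinb5, Serpinb6c, Serpinb7, Serpinb8 and Serpini2, besides a second probe set of Serpinf1 and the shared one of Serpina1e. They include maspin (Serpinb5, 3 probe sets), plasminogen activator inhibitor 2 (Serpinb2) and corticosteroid-binding globulin (Serpina6). No direction is given for them. Serpinb1b and Serpinb11 were each above background on 1 erythroid array and 0 epithelial arrays.

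**Figure D4:**
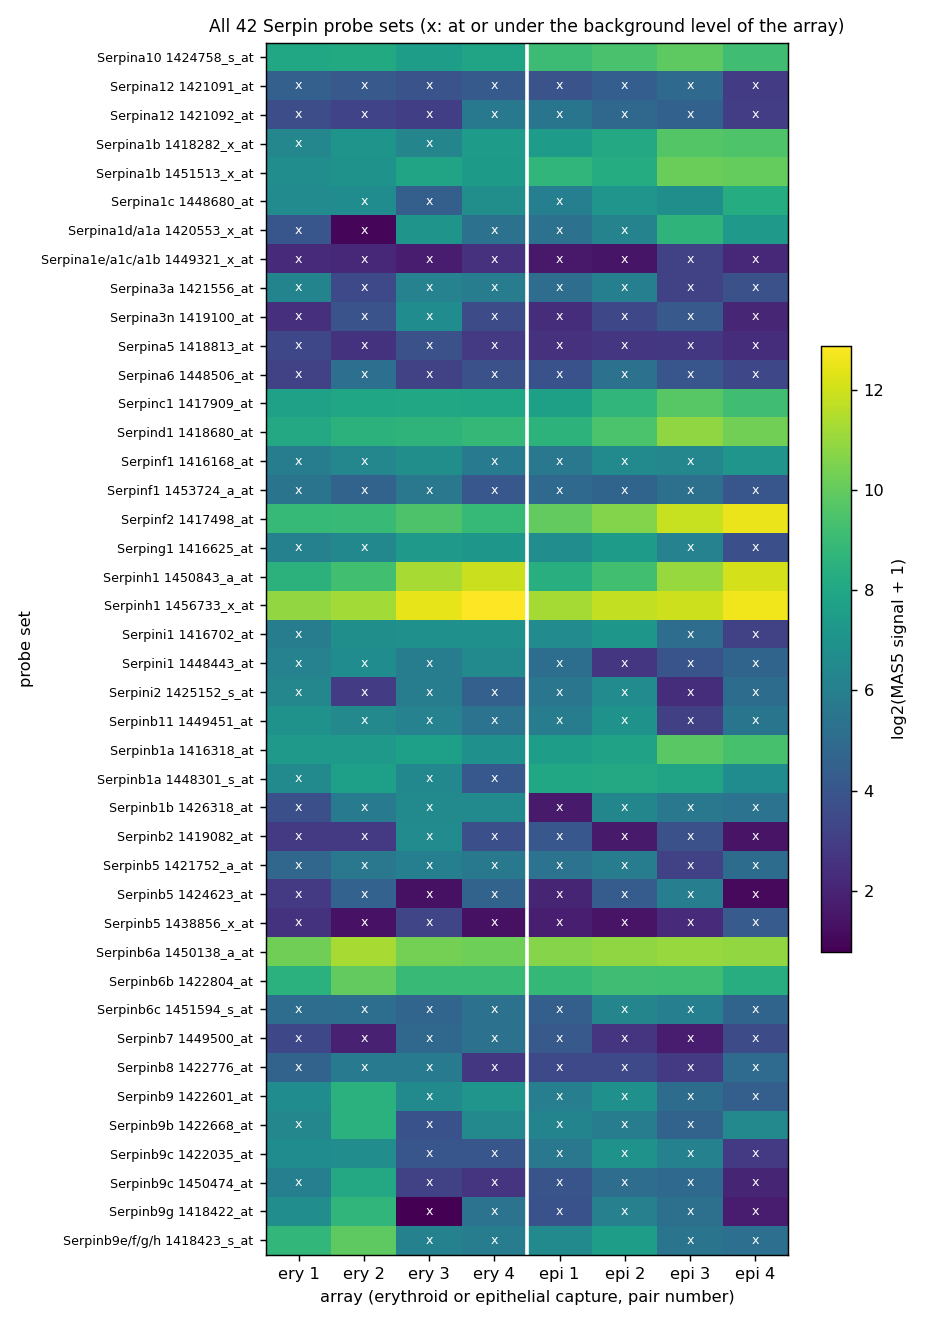
Colours give log2 of signal plus 1 for each of the 42 Serpin probe sets in the 4 erythroid captures and the 4 epithelial captures, and a cross marks a value at or under the background level of its array. The 16 probe sets that stayed at or under background on all 8 arrays include all 3 of Serpinb5.

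Serpin genes stand in rows on several chromosomes. Chromosome 12 holds the clade A genes in a row from Serpina10 to Serpina3n. Of their 12 probe sets, 3 were tested, 3 were called lower and 7 were at or under background on all 8 arrays. The called ones were that of Serpina10 and the 2 of Serpina1b, which may read the same group of copies. Those 2 reached the array median on all 4 epithelial arrays but on only 2 and 3 erythroid ones. They thus passed the filter through the captures in which they were higher. Over all probe sets tested, 7.69% were called lower. The levels of different genes were not compared, since probe sets differ in brightness. The clade B genes of chromosome 13 had 12 probe sets, with 5 tested, 2 called lower (both of Serpinb1a) and 1 at background throughout. Those of chromosome 1, which include Serpinb2 and Serpinb5, had 7 probe sets, with 0 tested and 6 at background throughout. On chromosome 11, Serpinf1 and Serpinf2 follow each other with 0 coding genes between, and Serpinf2 was called while Serpinf1 did not pass the filter.

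The proteases that serpins inhibit were also called lower or not at all. Of 16 tested genes of this list, 8 were lower and 0 higher, against 8.87% of all genes tested called lower and 6.02% higher. The list's median was -0.97, and -0.09 over all 31 measured genes without the filter. The count was 5 without pair 4 and 4 without the pairing. Without pair 3, 1 gene was called higher, Htra1 (2.13, adjusted p = 0.0164), and pairs 3 and 4 alone gave 2 higher and 10 lower. Plg, the precursor of plasmin, had 179, 188, 325 and 382 in erythroid captures, against 494, 633, 1180 and 1015 in epithelial captures. Its groups did not overlap, and the change was -1.66 ± 0.21 (adjusted p = 0.0015), alike for pairs 1 and 2 (-1.65) and for pairs 3 and 4 (-1.67). The membrane-anchored serine protease Prss8, prostasin, gave -1.78 ± 0.28 (0.0031), and the lysosomal protease Ctsb gave -0.66 ± 0.16 (0.0232), which was lost without pair 2 (0.0839), without pair 3 (0.0987), without the pairing (0.373) and without the variance trend (0.123). F2, prothrombin, the target of Serpinc1 and Serpind1, was not called at -0.88 ± 0.27 (0.0515), and is named for that role.

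Among receptors and cofactors of serpins or of their target proteases, 2 of 9 tested genes were higher and 3 lower (6.02% and 8.87% of all genes tested). The count of calls was 3 without pair 3 or without pair 4. The endothelial protein C receptor gene Procr had 4164, 14197, 343 and 863 in erythroid captures, against 471, 1686, 173 and 200 in epithelial captures. It was higher in each pair, and both captures of pairs 1 and 2 were above those of pairs 3 and 4 in the same kind of cell. The change was 2.09 ± 0.33 (adjusted p = 0.0033), and it was lost without the pairing (0.299). The other higher gene was the heparan sulfate proteoglycan Sdc1 (1.25 ± 0.32, 0.0249). The lower genes were the endocytic receptor Lrp2 (-1.44 ± 0.26, 0.0055), the syndecan Sdc4 (-1.42 ± 0.38, 0.0305) and the receptor chaperone Lrpap1 (-1.20 ± 0.11, 0.001). The Sdc1 call was lost without pair 3 (0.0947) or pair 4 (0.129), and that of Sdc4 likewise (0.116 and 0.151).

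Protease inhibitors of other families were lower in 6 and higher in 1 of 18 tested cases (8.87% and 6.02% of all genes tested), and 4 were called without the pairing. The lower ones included Ambp, the precursor of the inhibitor bikunin (-2.25 ± 0.41, adjusted p = 0.0059, and 0.235 without the pairing), Spink1, a trypsin inhibitor (-1.85 ± 0.17, 0.001), and Spint2, an inhibitor of membrane serine proteases (-1.73 ± 0.29, 0.0044). The erythroid Ambp signal of pair 2 was 4.14, below background. App, whose longer forms carry a Kunitz inhibitor domain, was the higher one (0.74 ± 0.22, 0.0455), and it was lost without pair 2, 3 or 4 (0.0544, 0.15 and 0.219). Serum proteins of endoderm other than serpins were lower in 11 and higher in 0 of 14 tested cases, against 8.87% of all genes tested called lower, with a median of -1.37. Without the pairing 6 were called. Ambp and a few other genes stand in more than 1 list. No difference between the serpins and this list was tested.

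**Figure D5:**
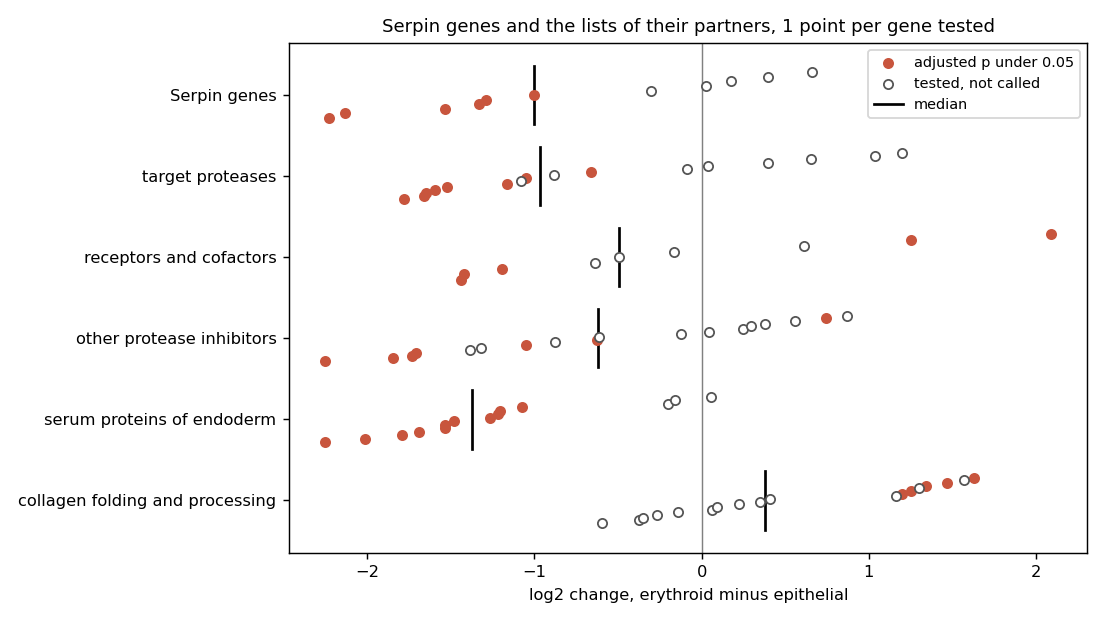
Change in log2, erythroid minus epithelial, of each tested gene among the serpins and 5 lists of partners and other secreted proteins, with filled points for called genes and a bar at each median. The serpin median lies at -1.0, the serum proteins at -1.37 and the collagen list at 0.38.

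The drop of the called serpins was larger in pairs 3 and 4, the pairs with the lower 3′ to 5′ ratios, for 8 of the 8 called probe sets. Of all 15 tested, 11 had the lower value in pairs 3 and 4. The unadjusted limma interaction p was under 0.05 for 8, in either direction, against 13.4% of all tested. Those 8 did not all share the larger drop. Serping1 (interaction 2.54 in log2) and Serpinh1 1456733_x_at (0.90) went the opposite way. The shared Serpinb9 probe set (-2.13) was higher in erythroid captures in all 4 pairs. Over all probe sets tested, the median of the change in pairs 3 and 4 minus that in pairs 1 and 2 was 0.006. The share with a larger drop among all probe sets called lower was not counted. The serum protein list had a median change of -1.0 over pairs 1 and 2 and of -1.74 over pairs 3 and 4. For visceral endoderm markers these medians were -1.02 and -1.88, and for red cell markers 1.27 and 3.02. The part of RNA integrity and of the purity of the captures in this difference was not tested.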

How the data were processed

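The authors deposited 1 intensity per probe set and array (MAS5 signal, linear) for 8 Affymetrix Mouse 430A 2.0 arrays. Per the submitters' processing notes, GCOS, MAS5 and affy were used, with no versions stated. With the lowest and highest 2% removed, the mean intensity of every array was 500. The deposited table held 22690 probe sets, including 64 maker's controls. Of the others, 20380 were annotated to 1 gene, 691 to several and 1555 to none. Genes were named from the platform annotation, and promoters were taken from RefSeq (GRCm38.p6).

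Before log2, 8.14 (10th percentile of the whole table) was added to each value. The array medians then spanned 0.593, and the arrays were quantile normalised. The 11449 probe sets that reached their array's median on at least 4 of 8 arrays were fitted with limma 3.58.1 in R 4.3.3 (lmFit and trended eBayes). The model held pair and cell type, leaving 3 residual degrees of freedom. P-values were two-sided, adjusted by Benjamini-Hochberg, and called under 0.05. A separate fit added the interaction of cell type with the set of pairs (1 and 2, or 3 and 4). For counts of genes, the tested probe set of highest mean stood for the gene. The pipeline was tested on simulated data.

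Pairs come from the labels' protocols. The 2 samples of a pair deviated from their group means together, with correlations of 0.44, 0.34, 0.31 and 0.54. Replicates are separate pools, and the pair term removes differences in level between them. P-values thus rest on how the change within a pair varied between pairs, with variance borrowed across probe sets. The number of arrays limits the precision.

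Every Serpin member is accounted for. Per-sample values are given for called members, for uncalled ones with a change of at least 1 in log2, and for the 8 brightest, and for other members where a result turns on them. From each list of partners, called genes are named, up to 3 of the largest changes and 1 of the smallest, and any other gene is named with its reason. Members and lists were chosen with earlier results of these data known. Alternatives changed the pairing term, scaling, offset, filter, variance model, probe set choice and replicates.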

Additional observations from a re-analysis of the deposited data

Results flagged for a closer look

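In the tested Serpini1 probe set (1416702_at), the erythroid capture of pair 1 had a normalised log2 value of 5.88, while the other erythroid captures lay between 6.79 and 6.89. Its gap to the nearest of them was 0.907 of the group's range, above Dixon's critical value for 4 samples. Of 30 groups of 4 checked this way, 1 stood out, and chance gives about 1 in 20.

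The change of Serpinf2 differed between the sets of pairs by -1.83 in log2, as pairs 3 and 4 minus pairs 1 and 2 (limma interaction term, adjusted p = 0.0414, 4 pairs). The drop was larger in both of pairs 3 and 4 than in either of pairs 1 and 2.

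Among probe sets that did not pass the filter, 3 were above background on at least 2 erythroid arrays and on 0 epithelial arrays. Serpinb9 (1422601_at) had a mean signal of 172 in erythroid captures against 57.5 in epithelial ones, and Serpinb9g (1418422_at) had 145 against 29.6. Serpinb9c (1422035_at) had 59.0 in erythroid captures against 62.8 in epithelial ones, so its mean was no higher in erythroid captures. The Serpinb9g and Serpinb9c signals were above background in pairs 1 and 2.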

How the results depend on the processing

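Without the replicate block, 445 probe sets were called in all in place of 1590, with 4 serpin probe sets in place of 8, 3 serpin genes in place of 6 and 16 partner-list genes in place of 35. Without the variance trend these counts were 518, 2, 2 and 18. Without the filter, 5 serpin probe sets were called. Pairs 1 and 2 only gave 1018 probe sets, 4 serpin probe sets (3 lower, and the shared Serpinb9 one higher) and 3 serpin genes. Pairs 3 and 4 only gave 2859 probe sets and 9 serpin probe sets (8 lower, and Serpinh1 1456733_x_at higher). Fits on 2 pairs rest on variance borrowed across probe sets. Leaving out each replicate in turn gave 534 to 1484 probe sets, 3 to 7 serpin probe sets, 3 to 6 serpin genes and 23 to 38 partner-list genes. The lowest counts came without replicate 4. The interaction was called for 211 probe sets, for 412 with arrays centred on their medians, and for 217 to 531 without single replicates, alternatives chosen after seeing the data. Median centring also called it for Serpinb1a (1416318_at), Serpina1b (1418282_x_at) and Serpind1, with adjusted p-values of 0.00437, 0.0385 and 0.038. It moved the interaction of all probe sets in the same direction, to a median of -0.27 in place of 0.006. The interaction calls were then 114 higher and 298 lower, in place of 140 and 71.

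Tfpi, 0.04 in the main comparison, was 0.72 in limma on pairs 1 and 2 only (adjusted p = 0.00019). In pairs 3 and 4 only it was -0.64 (0.00274), and its interaction was not called (0.084). Tfpi was lower in 3 pairs and higher in pair 2 alone, at 22322 in the erythroid against 6077 in the epithelial capture. Pair 1 had 6189 against 7062, so the 0.72 does not describe both pairs. The causes of these changes were not tested, and the fits on fewer pairs also held fewer samples. Centring on medians moved the median change of all probe sets to -0.11 in place of 0.02 and the higher share of calls to 29.3% in place of 44.6%. Serpina10 and Serpina1b (1451513_x_at) kept their calls in 17 of 17 alternatives, Serpinf2 in all but the fit without the variance trend (adjusted p = 0.0523). Signals near background limit Serping1, Serpini1 and the single Serpinb9 probe sets.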
